A study of Homo sapiens with 4 samples.

Results

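Chromatin remodellers and histone modifiers are the enzymes, subunits and readers that move nucleosomes and write, erase or bind marks on histones and DNA. The genes described here were taken by a pattern of gene symbols that covers the CHD, SMARC, ARID, KMT, KDM, SETD, NSD, EZH, BRD, BAZ, HDAC, TET, DNMT, ASXL and PHF names with SUZ12, BPTF, EP300, CREBBP and ATRX. Of 3905 genes listed in either of the authors' deposited tables, 86 matched, and all 86 were protein-coding. The pattern also takes genes whose known role lies elsewhere, such as SETD3, an actin methyltransferase, and SMARCAL1, a helicase of stalled replication forks. BPTF, SMARCA2, EZH2 and NSD1, which stand for the group, were all listed in both tables.

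The study used RNA immunoprecipitation and sequencing (RIP-seq) with an antibody against YTHDF3, a cytoplasmic protein that binds N6-methyladenosine (m6A) in mRNA. The groups were the immunoprecipitate (IP) and the input RNA of SiHa cells labelled as a YTHDF3 knockout, and the IP and the input of SiHa cells without that label. SiHa is an established human line from a cervical squamous carcinoma. Each of the 4 groups had 1 library, so the values below have no replicate error and no test, and a difference between cell lines cannot be set against a spread between cultures. How the knockout was made and whether it was 1 clone is not given in the sources used here. The antibody's target is the gene labelled as knocked out, and an immunoprecipitate made with an unrelated antibody is not among the 4 libraries used here.

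Nucleosome remodellers are complexes built around an ATPase of the SNF2 family, and the SWI/SNF, ISWI and CHD families differ in the subunits around it. Histone methyltransferases with a SET domain, lysine demethylases, acetyltransferases and deacetylases set marks that PHD fingers and bromodomains read. Polycomb repressive complex 2 methylates histone H3 at lysine 27, and DNMT and TET enzymes add and oxidise DNA methylation. Many of these proteins are large, and several of their genes are recurrently mutated in carcinomas.

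Each deposited table gave a level of every listed gene in the IP and in the input of that cell line, in a unit the files do not state. The column taken as IP was the one whose name lacks the word input, and its lane name differs from the sample's title in the knockout and is lacking in the title in SiHa, so this reading applies to all IP levels below. Enrichment is given as log2(IP/input), the log2 of the IP level over the input level. It leaves out a constant that the authors' deposited log2 folds contain, 0.81 in the knockout and 1.01 in SiHa. All rows were called up by the authors, with deposited log2 folds of at least 1.0 in each table, so a gene missing from a table had no level there and was either not tested or short of the thresholds. The tables were normalised separately, sequencing depth is unknown, and whether levels were divided by transcript length is unknown, so levels are compared between libraries of 1 gene and never between genes. YTHDF3 itself was not listed in the knockout, so its level there is not known and does not check the label, and it had levels of 25.8 in the IP and 11.7 in the input of SiHa. Of 10 squamous keratinocyte markers, KRT17 was listed in the knockout and KRT17, KRT8, KRT18, SFN, EPCAM and CDH1 in SiHa, and KRT5, KRT14, KRT19 and TP63 had no level in either table.

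The 86 chromatin genes made up a large share of the annotated genes with such names. RefSeq held 131 protein-coding genes that match the pattern, and 73 of them (55.7%) were listed in the knockout and 86 (65.6%) in SiHa. Of all 20052 RefSeq protein-coding genes, 11.2% were listed in the knockout and 18.7% in at least 1 table. Against the genes the authors tested, a number worked out from their p-values, the listed share was 21.2% of 11034 in the knockout and 27.0% of 13529 in SiHa. How many of the 131 were tested is unknown.

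Listing differed between the role groups. All 7 ISWI ATPases and partner subunits, all 4 NSD and SETD2 genes and both acetyltransferases EP300 and CREBBP were listed in the knockout and in SiHa. Of 15 SWI/SNF subunits, 11 were listed in the knockout and 12 in SiHa, and of 9 CHD remodellers 7 and 8. Of the 8 KMT2, SETD1 and SETD7 genes, 5 were listed in the knockout and all 8 in SiHa. Of 11 histone deacetylases, 2 were listed in the knockout and 3 in SiHa, and of 7 DNMT and TET genes 1 and 2. These counts were near the listed shares of all tested genes, 21.2% in the knockout and 27.0% in SiHa. They are therefore not read as a trait of these groups. Of 21 lysine demethylases, 10 were listed in the knockout and 12 in SiHa. No test of these shares was made, and CHD5, PHF10, SMARCD2, SMARCD3, DNMT3A, DNMT3B, HDAC3 and PHF5A were among the genes with no level in either table.

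**Figure D1:**
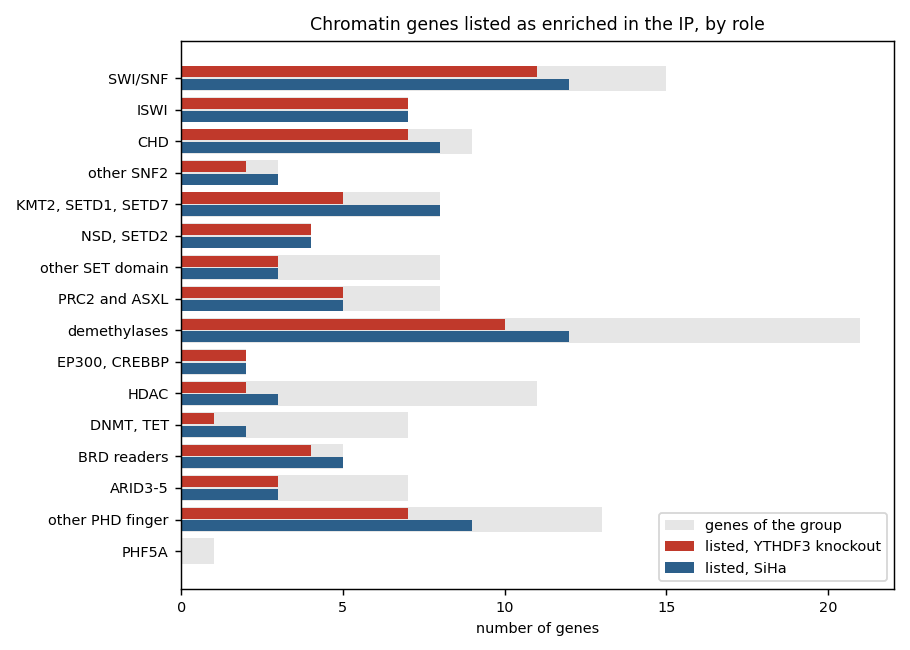
Number of chromatin genes per role group (grey bars) and how many of them the authors listed as enriched in the YTHDF3 IP of the knockout (red) and of SiHa (blue). All 7 ISWI genes were listed in both tables. Of 11 HDAC genes, 2 were listed in the knockout and 3 in SiHa. This was near the listed share of all tested genes, 21.2% and 27.0%.

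Enrichment of the listed chromatin genes lay above that of listed genes at large in both tables. In the knockout the 73 genes had a median log2(IP/input) of 2.37 with quartiles of 1.54 and 2.88, against a median of 1.61 over all 2340 listed genes. In SiHa the 86 genes had a median of 1.49 with quartiles of 1.09 and 1.80, against 1.04 over all 3648 listed genes. A log2(IP/input) of at least 1, an IP level at least 2 times the input level, was seen for 66 of 73 chromatin genes in the knockout (90.4%) and 70 of 86 in SiHa (81.4%). The same share over all listed genes was 73.8% in the knockout and 52.3% in SiHa. Values of at least 3 were seen for 15 chromatin genes in the knockout (20.5%), against 11.2% of all listed genes, and for none in SiHa, against 0.274%. The highest chromatin gene reached 3.78 in the knockout, against 4.69 for the highest of all genes, and 2.48 in SiHa, against 3.68. Chromatin genes were thus common in the upper part of both lists. The highest of them lay above 98.0% of all listed genes in the knockout and above 98.3% in SiHa. How many would be expected higher than that was not computed.

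**Figure D2:**
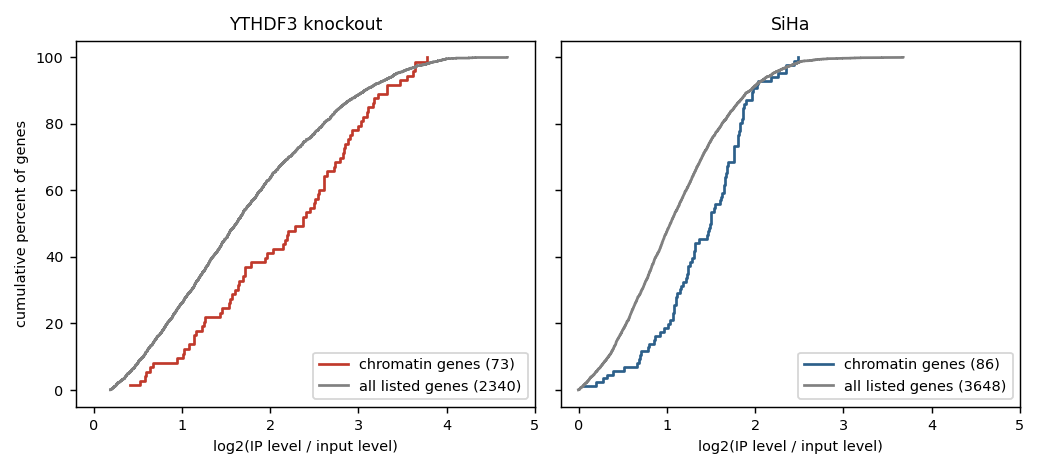
Cumulative percent of genes (y axis) up to a given log2(IP level / input level) (x axis) for chromatin genes (coloured) and all listed genes (grey), in the YTHDF3 knockout (left) and SiHa (right), 1 IP and 1 input library each. The medians are 2.37 against 1.61 in the knockout and 1.49 against 1.04 in SiHa.

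In the knockout, the SWI/SNF genes split into strongly and weakly enriched subunits, and 7 of 11 lay above the median of all listed genes. In SiHa, 11 of 12 lay above it. The complex slides or evicts nucleosomes and is built on SMARCA2 or SMARCA4 as its ATPase. SMARCA2 (ENSG00000080503, GRCh38 chromosome 9, 2015347 to 2193620) had a level of 48.7 in the IP and 4.87 in the input of the knockout, against 59.5 and 15.3 in SiHa, or log2(IP/input) of 3.32 in the knockout and 1.96 in SiHa. SMARCA4 had 87.1 and 11.5 in the knockout, against 87.9 and 31.0 in SiHa, or 2.93 and 1.5. The IP level of SMARCA4 was thus nearly the same in the cell lines while its input level was lower in the knockout. BRD7, a bromodomain subunit of the PBAF form, led the group. It had IP and input levels of 45.1 and 3.68 in the knockout, against 32.8 and 6.43 in SiHa, or 3.62 and 2.35. The scaffold subunits SMARCC1 and SMARCC2 reached log2(IP/input) of 2.90 and 3.17 in the knockout and 2.02 and 1.89 in SiHa.

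The ARID subunits bind DNA and define the BAF and PBAF forms. In the knockout, they and the core subunit SMARCB1 were less enriched than the ATPases. In SiHa they lay between 1.26 and 1.70, around SMARCA4 at 1.5 and below SMARCA2 at 1.96. ARID1A (chromosome 1, 26696015 to 26782104) had IP and input levels of 26.0 and 11.8 in the knockout, against 117 and 41.1 in SiHa, or log2(IP/input) of 1.14 and 1.5. ARID2 had 9.18 and 3.94 in the knockout, against 33.1 and 10.2 in SiHa, or 1.22 and 1.70. SMARCB1 had 44.1 and 20.1 in the knockout, against 78.4 and 28.7 in SiHa, or 1.13 and 1.45. These 3 were the only ones of the 11 SWI/SNF genes listed in both tables with a lower log2(IP/input) in the knockout than in SiHa. ARID1B was level at 1.26 and 1.26, and by its log2 fold in the authors' deposited tables it too was lower in the knockout, 2.08 against 2.26 in SiHa. SMARCD1, an accessory subunit listed in SiHa alone, had the lowest log2(IP/input) of all 86 genes, 0.051 at levels of 27.6 in the IP and 26.6 in the input.

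ISWI remodellers space nucleosomes, and their genes had the highest medians among the role groups with more than 3 listed genes. The median log2(IP/input) of the 7 genes was 3.09 in the knockout and 1.87 in SiHa. BAZ1B, which encodes the WSTF subunit (ENSG00000009954, chromosome 7, 73440406 to 73522293), was the highest of all chromatin genes in the knockout, with IP and input levels of 203 and 14.8, against 225 and 41.5 in SiHa, or log2(IP/input) of 3.78 and 2.44. BPTF, the largest subunit of the NURF complex and a reader of H3K4 methylation (ENSG00000171634, chromosome 17, 67825503 to 67984378), had 148 and 14.7 in the knockout, against 71.3 and 18.2 in SiHa, or 3.33 and 1.97. BAZ2B had 43.8 and 3.74 in the knockout, against 29.8 and 8.38 in SiHa, or 3.55 and 1.83. For BPTF and BAZ2B the IP level was higher in the knockout and the input level lower, whereas for BAZ1B both levels were lower in the knockout. The ATPase genes SMARCA5 and SMARCA1 stood at 2.83 and 2.41 in the knockout and 2.04 and 1.76 in SiHa. BAZ2A was the weakest of the group at 1.43 in the knockout and 1.07 in SiHa.

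The CHD remodellers, which carry chromodomains, varied little among themselves. The 7 genes listed in the knockout lay between 2.16 and 2.88, and the 8 listed in SiHa between 1.11 and 1.76. CHD4, the ATPase of the NuRD complex, had IP and input levels of 174 and 26.2 in the knockout, against 155 and 45.5 in SiHa, or log2(IP/input) of 2.73 and 1.76. CHD2 had 22.5 and 4.11 in the knockout, against 43.1 and 20.0 in SiHa, or 2.45 and 1.11. All 7 genes shared by the tables had a larger log2(IP/input) in the knockout, by 0.49 for CHD9 to 1.36 for CHD1. With each table centred on the median of its own listed genes, which lowers every difference by 0.58, CHD9 and the ISWI gene BAZ2A were lower in the knockout instead. ATRX, which deposits histone H3.3 with DAXX, had 119 and 14.6 in the knockout, against 76.7 and 25.1 in SiHa, or 3.03 and 1.61.

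**Figure D3:**
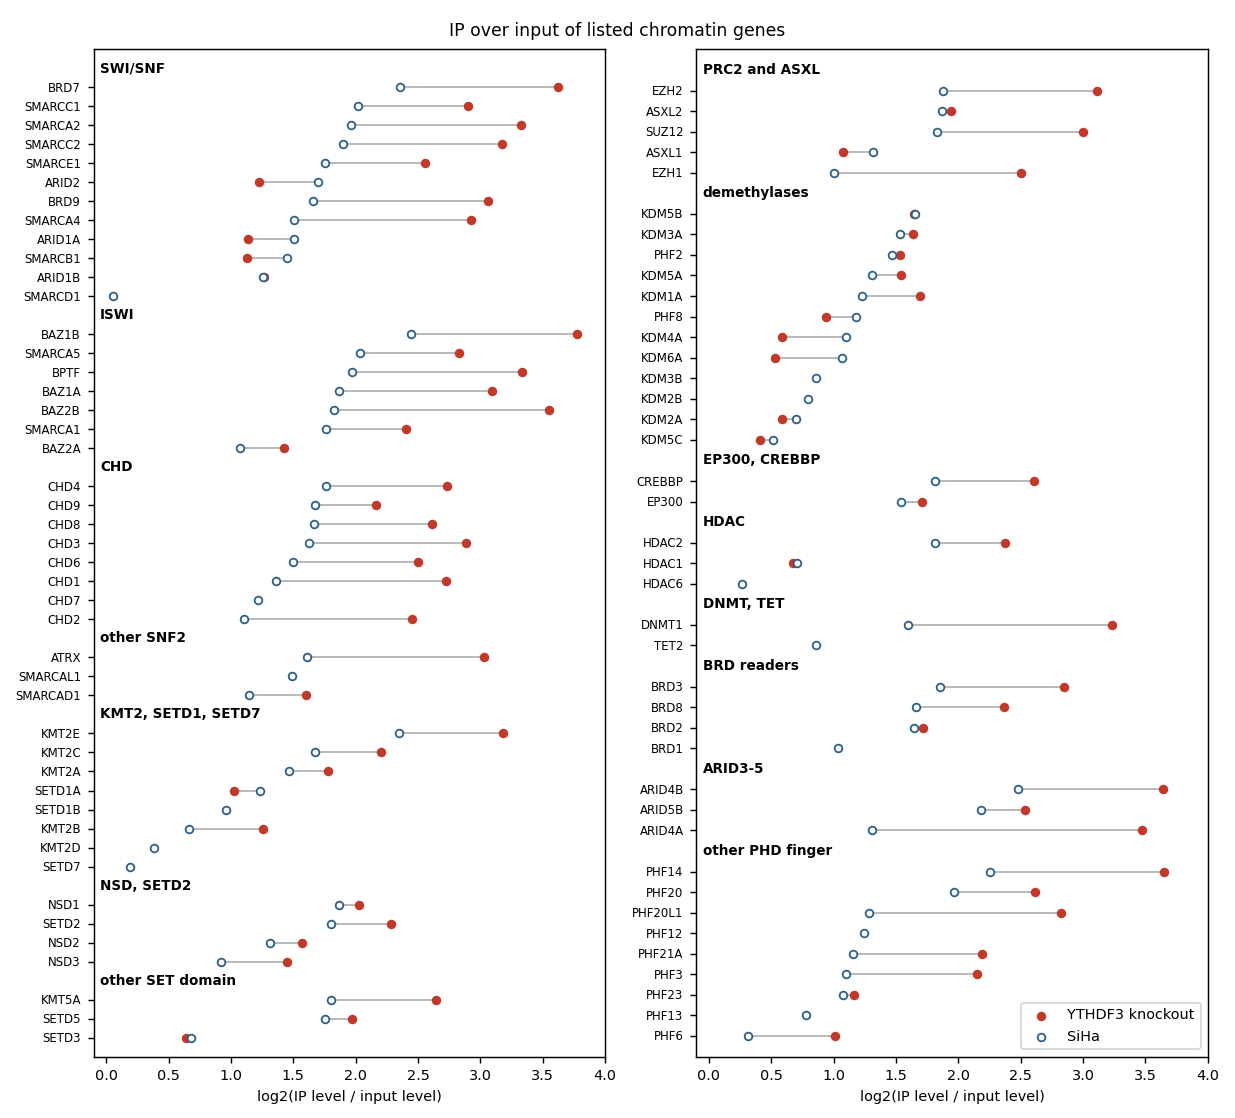
log2(IP level / input level) (x axis) of 85 of the 86 listed chromatin genes, grouped by role and ordered by the SiHa value, in the YTHDF3 knockout (red, filled) and SiHa (blue, open), 1 IP and 1 input library each. A row with no red point was not listed in the knockout. Before any centring, ISWI and CHD genes all lie further right in the knockout, whereas most demethylases lie close together or further left.

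The SET-domain genes ranged more widely. KMT2E, grouped here with KMT2 genes by its symbol, led them. Its IP and input levels were 78.7 and 8.68 in the knockout, against 142 and 28.0 in SiHa, or log2(IP/input) of 3.18 and 2.35. The H3K4 methyltransferase gene KMT2A had 37.8 and 11.0 in the knockout, against 84.8 and 30.7 in SiHa, or 1.78 and 1.46. NSD1, an H3K36 methyltransferase (ENSG00000165671, chromosome 5, 177131798 to 177300213), had 33.9 and 8.32 in the knockout, against 79.0 and 21.7 in SiHa, or 2.03 and 1.86. For KMT2E, KMT2A and NSD1 the IP and the input levels were all lower in the knockout than in SiHa. The other H3K36 enzymes were SETD2 at log2(IP/input) of 2.28 in the knockout and 1.80 in SiHa, NSD2 at 1.57 and 1.31, and NSD3 at 1.45 and 0.92. Before any centring, SETD1A was the only one of the 5 shared KMT2 and SETD1 genes with a lower value in the knockout, 1.02 against 1.24 in SiHa. Centring each table on its own listed genes added KMT2A and KMT2C. It also made NSD1, NSD2, NSD3 and SETD2 lower in the knockout. By its log2 fold in the authors' deposited tables NSD1 was lower there too, 2.84 against 2.87 in SiHa. KMT5A, which methylates histone H4 at lysine 20, reached 2.65 in the knockout and 1.80 in SiHa, and SETD3 was among the lowest at 0.64 and 0.68.

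Among the Polycomb genes, EZH2 and SUZ12 were enriched to a like extent. EZH2, the catalytic subunit of complex 2 (ENSG00000106462, chromosome 7, 148807383 to 148884291), had IP and input levels of 36.2 and 4.19 in the knockout, against 98.0 and 26.7 in SiHa, or log2(IP/input) of 3.11 and 1.88. SUZ12, a core subunit, had 101 and 12.7 in the knockout, against 96.0 and 27.0 in SiHa, or 3.0 and 1.83. EZH1, the paralog of EZH2, had 7.32 and 1.29 in the knockout, against 9.35 and 4.65 in SiHa, or 2.50 and 1.01. The log2 input level of EZH2 was lower in the knockout by the largest amount among the 73 shared chromatin genes (-2.67), and its IP level was lower too (-1.44). ASXL1 and ASXL2, which activate the deubiquitinase BAP1, stood at 1.08 and 1.94 in the knockout and 1.31 and 1.87 in SiHa.

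The lysine demethylases, with the PHD finger demethylases PHF2 and PHF8 among them, were the least enriched large group in the knockout. Their median log2(IP/input) was 1.24 there, below the 1.61 of all listed genes, and 3 of 10 lay above it. In SiHa their median was 1.14, and 8 of 12 lay above the 1.04 of all listed genes. KDM5C, an X-linked H3K4 demethylase, had IP and input levels of 26.3 and 19.8 in the knockout, against 51.0 and 35.6 in SiHa, or log2(IP/input) of 0.41 and 0.52, the lowest of the chromatin genes in the knockout. KDM6A, the H3K27 demethylase UTX (chromosome X, 44873188 to 45112779), had 11.0 and 7.64 in the knockout, against 34.9 and 16.7 in SiHa, or 0.53 and 1.07. KDM4A, an H3K9 and H3K36 demethylase, had 14.3 and 9.54 in the knockout, against 28.0 and 13.0 in SiHa, or 0.59 and 1.10. In KDM6A and KDM4A the IP level was lower in the knockout by more than the input level was. KDM2A stood next to them at 0.58 in the knockout and 0.70 in SiHa. KDM1A, the LSD1 demethylase, was the highest of the group in the knockout at 1.69, against 1.23 in SiHa, and KDM5B the highest in SiHa at 1.65, against 1.64 in the knockout.

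The enzymes of acetylation and DNA methylation were few but not alike. CREBBP had IP and input levels of 48.2 and 7.91 in the knockout, against 71.4 and 20.4 in SiHa, or log2(IP/input) of 2.61 and 1.81. Its paralog EP300 had 48.3 and 14.8 in the knockout, against 118 and 40.3 in SiHa, or 1.71 and 1.54. DNMT1, the maintenance DNA methyltransferase (chromosome 19, 10133346 to 10194953), had 108 and 11.5 in the knockout, against 156 and 51.4 in SiHa, or 3.23 and 1.60. DNMT1 was the only DNA methylation gene listed in the knockout, and TET2 was listed in SiHa alone. The class I deacetylase genes HDAC1 and HDAC2 differed, with HDAC2 at 2.37 in the knockout and 1.81 in SiHa and HDAC1 at 0.67 and 0.70.

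Among the bromodomain readers, BRD3 and BRD2, which bind acetylated histones, had lower IP and input levels in the knockout. BRD3 had IP and input levels of 59.2 and 8.24 in the knockout, against 89.1 and 24.7 in SiHa, or log2(IP/input) of 2.84 and 1.85. BRD2 had 80.6 and 24.6 in the knockout, against 140.0 and 44.7 in SiHa, or 1.71 and 1.65. The paralogs thus lay further apart in the knockout than in SiHa.

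ARID4A and ARID4B, subunits of the SIN3 corepressor, and PHF14 were at the upper end in the knockout. ARID4B (chromosome 1, 235166902 to 235328179) had IP and input levels of 65.2 and 5.23 in the knockout, against 53.6 and 9.61 in SiHa, or log2(IP/input) of 3.64 and 2.48, the highest chromatin gene in SiHa. ARID4A (chromosome 14, 58298555 to 58373876) had 48.7 and 4.37 in the knockout, against 19.4 and 7.84 in SiHa, or 3.48 and 1.31. PHF14 had 64.4 and 5.15 in the knockout, against 38.3 and 8.01 in SiHa, or 3.64 and 2.26. ARID4A and ARID4B were thus close in the knockout and apart in SiHa. PHF20L1 had 28.1 and 3.97 in the knockout, against 12.7 and 5.22 in SiHa, or 2.82 and 1.28. PHF6 was the weakest of the 7 PHD finger genes outside the demethylase and Polycomb groups listed in both tables, at 1.01 in the knockout and 0.32 in SiHa.

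Every chromatin gene listed in the knockout was also listed in SiHa, 73 of 73, and these 73 were 84.9% of the 86 listed in SiHa. Over all genes, 89.0% of the knockout list was in the SiHa list, and 57.1% of the SiHa list was in the knockout list. Among the 73, log2(IP/input) in the knockout minus that in SiHa had a median of 0.65, against 0.37 over all 2083 shared genes, and was positive for 60 and negative for 13. Positive differences made up 82.2% of the chromatin genes and 72.9% of all shared genes. Passing in both tables was a condition for being compared. This difference depends on how the separately normalised tables are scaled. With each table centred on its own median, the median was 0.070 for the chromatin genes and -0.21 for all shared genes, with 39 of the chromatin genes positive and 34 negative, or 53.4% positive against 39.8% of all shared genes. Relative to the median of all shared genes, a comparison within the same scaling, 46 of the 73 lay above and 27 below. A difference of at least 1 was seen for 25 of 73 (34.2%), against 21.0% of all shared genes, and of at most -1 for 0 of 73, against 0.480%. Centring on the median of all shared genes left 10 of 73 (13.7%) at or above 1, against 9.03% of all shared genes. Across the 73 genes the values in the cell lines had a Spearman rho of 0.72, the same as over all shared genes (0.72). It is a description across genes, which all come from the same 4 libraries.

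The order of the differences followed the roles in part. Among the largest were those of ARID4A (2.17), BAZ2B (1.72), DNMT1 (1.63) and PHF20L1 (1.54). The lowest were those of KDM6A (-0.54), KDM4A (-0.52), ARID2 (-0.47), ARID1A (-0.37) and SMARCB1 (-0.32). Of the 27 shared genes of remodelling ATPases and their subunits, 22 lay above the median of all shared genes, at a median difference of 1.0. Of the 46 other shared chromatin genes, 24 lay above it, at a median of 0.47. These 46 were not alike. Of the 10 shared demethylases, 1, KDM1A, lay above it, at a median of -0.055. Of the 7 PHD finger genes outside the demethylase and Polycomb groups, 6 lay above it, at a median of 1.04. Of the 5 Polycomb and ASXL genes 3 did, at 1.16, and of the 3 ARID4 and ARID5 genes 2, at 1.16. Large differences were thus not particular to the remodelling genes. These medians are before any centring. With each table centred on its own listed genes, every difference is lower by 0.58, and the median of the 46 other genes is below 0.

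**Figure D4:**
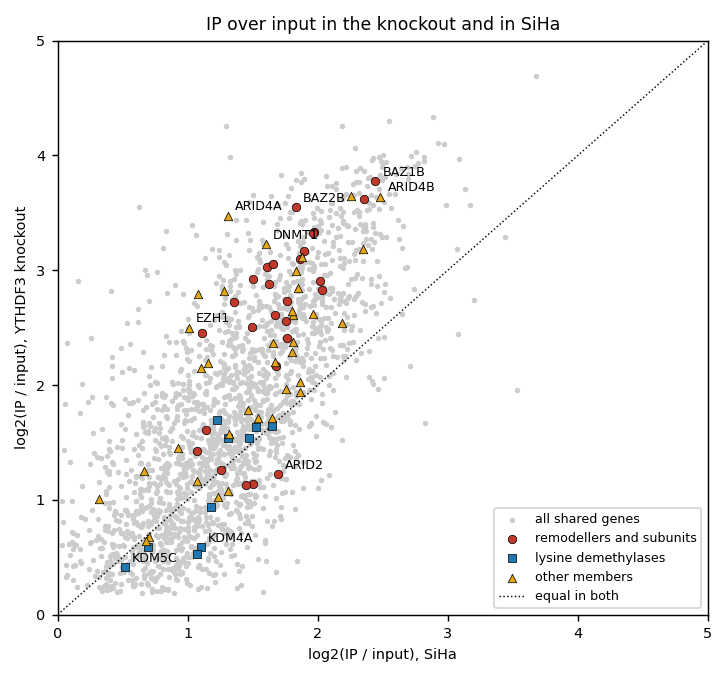
log2(IP / input) in the YTHDF3 knockout (y axis) against that in SiHa (x axis) for 27 remodelling genes (red circles), 10 lysine demethylases (blue squares) and 36 other chromatin genes (yellow triangles) over all 2083 shared genes (grey), 1 IP and 1 input library per cell line. Before any centring, remodelling genes lie mostly above the dotted line of equality and demethylases close to or below it.

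The difference in enrichment came with unequal shifts of the IP and input levels. The input level was lower in the knockout for 69 of 73 chromatin genes (94.5%), against 75.3% of all shared genes, with a median log2 ratio of knockout over SiHa of -1.01, against -0.52 over all shared genes. A ratio of at most -1 was seen for 37 of 73 (50.7%), against 25.5% of all shared genes, and of at least 1 for 1 of 73, against 2.64%. The IP level was lower in the knockout for 48 (65.8%) and higher for 25, against 55.4% lower over all shared genes, with a median log2 ratio of -0.39, against -0.12 over all shared genes. A ratio of at most -1 was seen for 19 (26.0%), against 16.4% of all shared genes, and of at least 1 for 4 (5.48%), against 11.0%. These ratios are set across separately normalised tables, and in bulk RNA fewer cells with a transcript and less of it per cell cannot be told apart.

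EZH2, CHD2, DNMT1, NSD2 and PHF2 had the lowest input ratios, at -2.67, -2.29, -2.15, -2.11 and -2.09 on the log2 scale, and were named after their values were seen. The lowest IP ratios were those of ARID1A (-2.16) and PHF2 (-2.02). SMARCA1, an X-linked ISWI ATPase, went the other way, with IP and input levels of 25.6 and 4.83 in the knockout, against 7.60 and 2.24 in SiHa, a log2 ratio of 1.11 in the input and 1.75 in the IP. SMARCA5, KDM5B and PHF23 were the other genes with a higher input level in the knockout. In all, 21 chromatin genes had a lower input level and a higher IP level in the knockout, among them BPTF, BAZ2B and ARID4A. Both levels were lower for 48, among them EZH2, NSD1, SMARCA2 and ARID1A. The shares of all shared genes with these combinations were not computed, and 75.3% of all shared genes had a lower input level. The IP level was higher in the knockout for 14 of the 27 remodelling genes and for 1 of the 10 demethylases, KDM5B. Over all shared genes it was higher for 44.6%. Across the 73 genes the difference in log2(IP/input) had a Spearman rho of 0.69 with the IP ratio and -0.041 with the input ratio, a description of quantities that share those same levels.

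**Figure D5:**
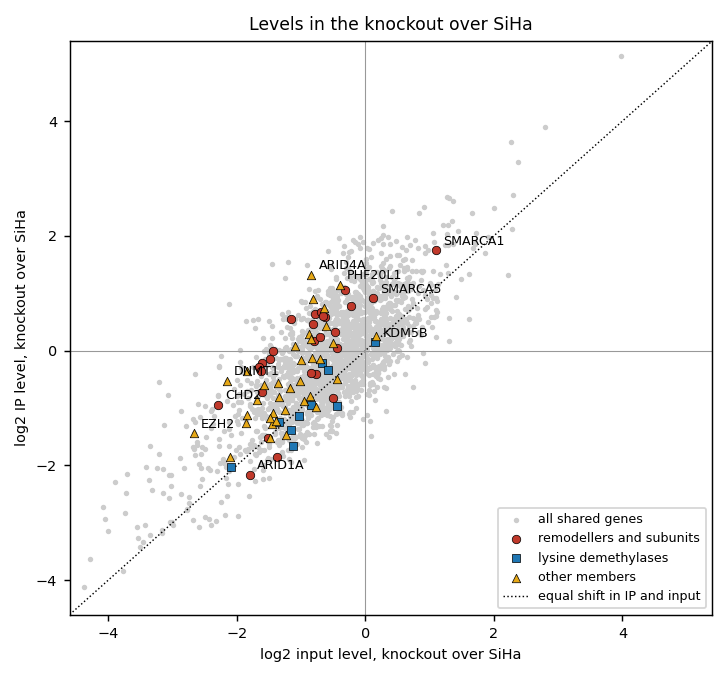
log2 ratio of the IP level (y axis) and of the input level (x axis) in the knockout over SiHa for the 73 shared chromatin genes (coloured by role) over all 2083 shared genes (grey). The chromatin genes lie mostly left of 0, and EZH2 is the furthest left of them at -2.67.

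Most paralog pairs with values in both tables were ordered alike in the cell lines. Of 33 pairs of related genes, 22 had values in both tables for both genes. Of these, 17 had the same gene higher in the knockout and in SiHa. Some pairs share a gene. The share among pairs of other listed genes was not computed, so the count is not read as a trait of paralogs. Over all shared genes the values in the cell lines had a Spearman rho of 0.72. The widest gap in the knockout was that of BAZ2B over BAZ2A, 3.55 against 1.43, with 1.83 against 1.07 in SiHa. HDAC2 over HDAC1 was next in the knockout, 2.37 against 0.67, with 1.81 against 0.70 in SiHa. EZH2 exceeded EZH1 and SMARCA2 exceeded SMARCA4 in both, by 0.61 and 0.40 in the knockout and by 0.87 and 0.46 in SiHa. The gap of EZH2 over EZH1 in the knockout rests on a low EZH1 input level of 1.29. NSD1 exceeded NSD2 by 0.46 in the knockout and 0.55 in SiHa. The 5 pairs with another order were ARID1A and ARID1B, SMARCC1 and SMARCC2, CHD4 and CHD3, CHD9 and CHD6, and PHF20 and PHF20L1. In PHF20 and PHF20L1 the gap was -0.21 in the knockout and 0.68 in SiHa, and in the other 4 it was at most 0.34 in size in each cell line. Without replicates, gaps of this size cannot be set against an error.

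The 13 chromatin genes listed in SiHa alone were weakly enriched there. Their median log2(IP/input) in SiHa was 0.86, against 1.61 for the 73 that were also listed in the knockout, and over all genes the same medians were 0.72 and 1.32. The methyltransferase genes among them were KMT2D, with 21.5 in the IP and 16.4 in the input of SiHa, SETD1B, with 47.0 and 24.1, and SETD7, with 14.1 and 12.3. KMT2D and SETD1B are H3K4 methyltransferases whose paralogs KMT2C and SETD1A were listed in both tables. The demethylases KDM3B and KDM2B stood at log2(IP/input) of 0.86 and 0.80, the 5-methylcytosine dioxygenase TET2 at 0.86 and the cytoplasmic deacetylase HDAC6 at 0.27 in SiHa. The highest were SMARCAL1 at 1.49, PHF12 at 1.24, CHD7 at 1.22 and BRD1, a subunit of acetyltransferase complexes, at 1.03, and PHF13 stood at 0.78. Their levels in the knockout are not known, and so their difference between cell lines has no value.

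The adjusted p-values in the authors' deposited tables compare 1 IP with 1 input library and measure no spread between cultures. By those values in the authors' deposited tables, 65 of the 73 listed genes (89.0%) were at or below 0.05 in the knockout and 81 of the 86 (94.2%) in SiHa. Of all genes in the authors' deposited tables, 80.4% were at or below it in the knockout and 80.9% in SiHa. Over all tested genes, a wider denominator, the share was 17.0% in the knockout and 21.8% in SiHa. Above 0.05 in the authors' deposited table of knockout genes were 8, ARID2, KDM3A, KDM4A, KDM6A, KMT2B, PHF2, PHF6 and PHF8, and in that of SiHa genes 5, CHD7, HDAC6, PHF6, SETD7 and TET2. Closest to the fold threshold in the authors' deposited table were KDM5C in the knockout, at 1.23 on the log2 scale, and SMARCD1 in SiHa, at 1.06. Genes just below the threshold were not in the files used here.

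The chromatin genes were long in genomic span. Their median span in the RefSeq annotation of GRCh38.p14 was 81.4 kb, from 5.79 kb for PHF23 to 435 kb for ARID1B, against a median of 50.9 kb over 3844 listed genes with a RefSeq match. They lay on 20 chromosomes. Across genes, the Spearman rho between span and log2(IP/input) was 0.090 in the knockout and 0.26 in SiHa for the chromatin genes, against 0.057 and 0.14 for all listed genes. Among genes of at least 50 kb, the median log2(IP/input) was 2.20 for chromatin genes and 1.65 for all listed genes in the knockout, and 1.5 and 1.11 in SiHa. Transcript lengths were not used here.

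Related genes outside the symbol pattern were often listed too, at values near those of listed genes at large. Of 87 genes in 5 lists of other Polycomb genes, methyltransferases, acetyltransferases, remodelling subunits and corepressors, 46 were listed in the knockout and 52 in SiHa, with medians of 1.63 and 1.09. These medians were close to those of all listed genes, 1.61 and 1.04. The difference between cell lines had a median of 0.27 over 43 shared genes, against 0.37 over all shared genes. NCOR1, the nuclear receptor corepressor, had IP and input levels of 112 and 12.4 in the knockout, against 134 and 27.4 in SiHa, or log2(IP/input) of 3.17 and 2.30. PRDM2, an H3K9 methyltransferase of the PR-domain family, had 38.7 and 4.10 in the knockout, against 37.1 and 7.30 in SiHa, or 3.24 and 2.35.

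Of the related genes, 23 of 46 in the knockout and 23 of 52 in SiHa lay below the medians of all listed genes. The genes named were those with the highest SiHa values of each list, and so most lay above them. RBBP7, a histone-binding subunit of Polycomb complex 2 and NuRD, lay below them at 0.91 in the knockout and 1.01 in SiHa. PBRM1, the PBAF subunit with several bromodomains, stood at 2.61 in the knockout and 1.87 in SiHa, and RSF1, a partner of SMARCA5, at 3.32 and 2.01. The MOZ-family acetyltransferase genes KAT6A and KAT6B stood at 2.35 and 3.21 in the knockout and 2.19 and 2.12 in SiHa. The insulator factor CTCF stood at 2.22 and 2.20, SIN3A, the scaffold that binds ARID4A and ARID4B, at 1.92 and 2.03, and JARID2, a cofactor of Polycomb complex 2, at 1.74 and 1.40. EED, another core subunit of that complex, had no level in either table. SIN3A thus had a lower log2(IP/input) in the knockout, whereas its partner genes ARID4A and ARID4B had higher ones.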

How the data were processed

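RIP-seq of SiHa cells labelled as a YTHDF3 knockout and of SiHa cells gave 1 IP and 1 input library each. The submitters' processing notes name FastQC 0.11.7 and the builds GRCh38 and hg38, and no source used here names an aligner, a counter, their strand setting or the test. Per the file headers, the authors deposited for each cell line a level per gene in IP and input, treated here as a signal of unknown unit, a log2 fold, and p-values with adjusted p-values. The log2 fold that the authors deposited equalled log2(IP/input) plus 1 constant per table. Here log2(IP/input) was computed with no pseudocount (Python 3.11.15, pandas 2.3.3). The number of genes tested was the one that made Benjamini-Hochberg ranks whole, a step checked on artificial p-values. RefSeq symbols or older symbols matched all 86 members and 3844 of 3905 listed genes. No test between groups was possible with 1 library each, and depth was unknown.

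Members and gene lists were chosen with earlier results of these data known. Named were the 4 genes that stand for the group, the 5 highest and lowest log2(IP/input) in each table and differences between cell lines, the SiHa leader of each role group, genes listed in 1 table, paralogs, and up to 3 genes of each related list. The values of 1 gene that this rule names are not reported here, and it stays in the counts and medians. SUZ12, SETD2, KDM1A, EED and the extremes of the input and IP ratios were named after their values were seen. Of 10 markers of other cell types, ACTA2 and MAP2 were listed in the knockout and MAP2 in SiHa. Alternatives were the deposited fold, a pseudocount of 1, centring, an IP level of at least 10, an adjusted p of at most 0.05, a narrower symbol pattern and a gene span of at least 50 kb.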

Additional observations from a re-analysis of the deposited data

How the results depend on the processing

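Counts of listed chromatin genes stayed within 1.5 times their value under all 3 alternatives tried, with 61 to 67 listed in the knockout, 72 to 81 in SiHa and 61 to 66 in both, and no median over all the chromatin genes changed sign, whereas the median difference of all shared genes was -0.21 with each table centred on its own listed genes. With the deposited log2 fold the medians were 3.18 in the knockout and 2.50 in SiHa, and their difference over shared genes 0.46. A pseudocount of 1 gave 2.10, 1.41 and 0.59, with input and IP ratios of -0.93 and -0.37. Centring on all genes of the same kind gave 0.75, 0.46 and 0.28, with -0.48 and -0.27. An IP level of at least 10 gave 2.41, 1.5 and 0.75, with -0.91 and -0.37. Leaving out PHF and ARID3 to ARID5 genes gave 2.37 and 1.52, with a difference of 0.59 and ratios of -1.09 and -0.53. Only genes of at least 50 kb, an alternative chosen after seeing the data, gave 2.20, 1.5 and 0.65, with -1.03 and -0.49. Centring each table on its own listed genes, also chosen after seeing the data, gave a difference of 0.070, so the number of chromatin genes above 0 depends on the scaling (60 of 73, or 39 of 73 under this centring), with shares of 82.2% and 53.4% against 72.9% and 39.8% of all shared genes. Under it 4 of 73 genes (5.48%) had a difference of at least 1, against 4.51% of all shared genes. A difference of at most -1 was seen for 3. Centring on the median of all shared genes gave 10 (13.7%, against 9.03%) and 0. The shares of all shared genes at or below -1 were not computed under either centring. With the deposited fold 20, and with the pseudocount 21, of 73 genes had a difference of at least 1, in place of 25, against 13.6% and 17.0% of all shared genes. An alternative on protein length was not run, because protein lengths were not used here. No paired analysis was possible because each group had 1 library, and for the same reason no library could be left out.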
